A study of Mus musculus with 6 samples.

Results

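The ADAM and ADAMTS metalloproteinases, their ADAMTS-like relatives and the inhibitors that hold them in check were described across 3 Zfp750 knockout and 3 control libraries of sorted mouse skin cells at day 50. Members were the protein-coding genes of the deposited table named Adam, Adamts, Adamtsl, Adamdec1, Timp or Reck, without the procollagen N-proteinases Adamts2, Adamts3 and Adamts14. This gave 45 of 23934 genes: 19 of the ADAM group with Adamdec1, 16 ADAMTS, 5 ADAMTS-like, and 5 inhibitors (4 TIMPs and Reck). The knockout mice are labelled ZNF750 fl/fl and Rosa26 -/-, with Lrig1-CreER +/- in 1 sample and Lrig1-CreERT2 +/- in 2. The control mice are labelled wt/fl at ZNF750 with Rosa26 -/- in 2 samples (1 with Lrig1-CreER +/- and 1 with Lrig1-CreERT2 +/-) and wt/wt with Rosa26 +/- and Lrig1-CreERT2 +/- in the third. Both groups received 4-hydroxytamoxifen as pups, on days 4 to 7 or days 5 to 8, and both were sorted from mice said to express tdTomato. The recombinase is driven from Lrig1, a gene of the upper hair follicle, and acts only when tamoxifen is given. The table's columns name a group and a library but no sample of the labels, and genotypes therefore cannot be tied to columns. Values below run in the order S5, S6, S7 for the knockouts and S2, S3, S4 for the controls.

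ADAMs are membrane-anchored proteases that shed growth factors, cytokine receptors and adhesion molecules from the cell surface, while some members have lost the catalytic site and act in adhesion. ADAMTS proteases are secreted and bind the matrix, where subgroups cut the large proteoglycans aggrecan and versican, the cartilage protein COMP or fibrillin-associated proteins. ADAMTS-like proteins share the binding domains without the protease. TIMPs are secreted inhibitors of matrix metalloproteinases, and TIMP-3 is also the principal physiological inhibitor of several ADAMs and ADAMTSs. RECK is a membrane-anchored inhibitor. In skin, ADAMTS enzymes take part in remodelling the dermal matrix and ADAMs release ligands in the epidermis.

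Depth was 16940656 to 20222372 estimated reads in the knockout libraries and 15310161 to 20705441 in the controls. Zfp750 was at normalized values of 4.90, 1.82 and 7.16 in the knockouts and at 41.9, 3.75 and 314 in the controls. Control S3 thus lay inside the knockout range (exact 2-sided permutation p = 0.3, smallest possible 0.1). A normalized value is the authors' count divided by a size factor, and 3 reads correspond to 2.39 to 3.81. All 6 keratinocyte markers were detected, with sums of 2892 to 23604 in the knockouts and of 6274, 447 and 29168 in controls S2, S3 and S4. Control S3 thus had the lowest keratinocyte sum of all 6 libraries, and the part of this in its Zfp750 value was not tested. Sums of the 6 fibroblast markers were far higher, at 905440 to 1191530 in the knockouts and 2971210 to 8902030 in the controls. Of these 6, the receptor gene Pdgfra rose (log2 fold change 1.24, adjusted p = 0.0165) and the others did not pass the test. The others all lay the opposite way, with log2 fold changes of -2.67 for Col1a1, -2.71 for Col1a2, -1.68 for Col3a1, -0.99 for Dcn and -0.96 for Lum. Groups did not overlap for Col1a1, Col1a2 and Col3a1. The 3 sebocyte markers all rose (sums of 508 to 3898 in the knockouts and 14.99 to 75.7 in the controls), as did 2 of 4 mast cell markers (915 to 2769 in the knockouts and 35.6 to 353 in the controls, with Fcer1a at 0 in every control), and their part in the members' values was not tested. In bulk RNA, fewer cells of a type and less RNA per cell cannot be told apart.

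Before the values, the upstream sequence of 3 members is shown: the inhibitors Timp1 and Timp3, which moved in opposite directions, and Adamts18, which had the largest fold change of all members. Each is the 250 bases before the RefSeq transcription start on GRCm38.p6, with the GC box GGGCGG in capitals where it lies on the shown strand or, as CCGCCC, on the other. Timp1 lies at chrX:20869916-20870165 on the plus strand, Timp3 at chr10:86300162-86300411 on the plus strand and Adamts18 at chr8:113848840-113849089 on the minus strand.
Timp1: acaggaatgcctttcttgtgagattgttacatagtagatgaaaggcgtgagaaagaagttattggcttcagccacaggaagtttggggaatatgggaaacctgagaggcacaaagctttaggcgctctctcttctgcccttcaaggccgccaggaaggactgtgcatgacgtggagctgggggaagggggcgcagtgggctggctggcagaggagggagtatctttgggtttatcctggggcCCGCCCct
Timp3: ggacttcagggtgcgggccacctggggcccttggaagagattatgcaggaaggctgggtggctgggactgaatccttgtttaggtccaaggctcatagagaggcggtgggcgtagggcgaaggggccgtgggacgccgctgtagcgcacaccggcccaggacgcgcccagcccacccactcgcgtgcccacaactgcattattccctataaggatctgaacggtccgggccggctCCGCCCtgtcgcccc
Adamts18: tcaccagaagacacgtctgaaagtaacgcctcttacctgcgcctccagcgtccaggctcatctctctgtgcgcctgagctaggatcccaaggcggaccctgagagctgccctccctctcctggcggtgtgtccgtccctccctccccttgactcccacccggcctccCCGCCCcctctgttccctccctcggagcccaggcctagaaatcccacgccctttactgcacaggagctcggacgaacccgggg
Each of the 3 held 1 GC box, whose first base was 8, 15 and 83 bases before the start. G and C made up 54.4% of the Timp1 sequence, 65.6% of that of Timp3 and 65.2% of that of Adamts18, beside a median of 52.4% over all windows. A window was found for 26 of the 45 members (28 windows). None was found for Adamts7, Adamts15, Adam9, Adam12 or Adamtsl1, whose values changed as given below, so the motif counts do not cover these genes. The GC box was in 16 of the 28 member windows and in 32.7% of the 32851 windows of all genes. An AP-1 motif (TGANTCA) was in 1 member window, 1 of the 3 of Adam19, and in 6.75% of all windows. A TATA motif (TATAAA) was in 2, those of Adamts1 and Adamtsl2, and in 12.4% of all windows. The RUNX motif (TGTGGTT) was in 0 of 28 and in 4.40% of all. Both strands were searched and the motifs may overlap. A match is a description of letters, not of a site in use.

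Of the 45 members, 39 passed the filter on low values (a share of 1 per 1000000 or more in 3 or more libraries) and were tested with limma. In the knockout 5 rose and 5 fell, and 29 did not pass the test. Among all 15935 tested genes, 4.12% were called higher and 2.59% lower, against 12.8% of tested members in each direction. The median log2 fold change was -0.35 over the tested members and 0.01 over all tested genes. The genes that rose were Timp1, Adamts7, Adamts15, Adam9 and Adam12. Those that fell were Timp3, Adamts17, Adamts18, Adamtsl1 and Adamtsl4. Without control S3, whose Zfp750 value lay within the knockout range and whose keratinocyte sum was lowest, the same 5 rose and 1, Timp3, fell. The number that fell was 0 without knockout S6 or control S2 (12 and 11 at an unadjusted limma p under 0.05), 1 without knockout S7 and 9 without knockout S5. Over all tested genes 413 fell with every library kept. That number was 91 without S6, 74 without S2, 164 without S7, 142 without S3 and 349 without S5, so lower calls became fewer over all genes too. The groups did not overlap for 20 of the 39, the 10 called genes and 10 others, against 28.8% of all tested genes.

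**Figure D1:**
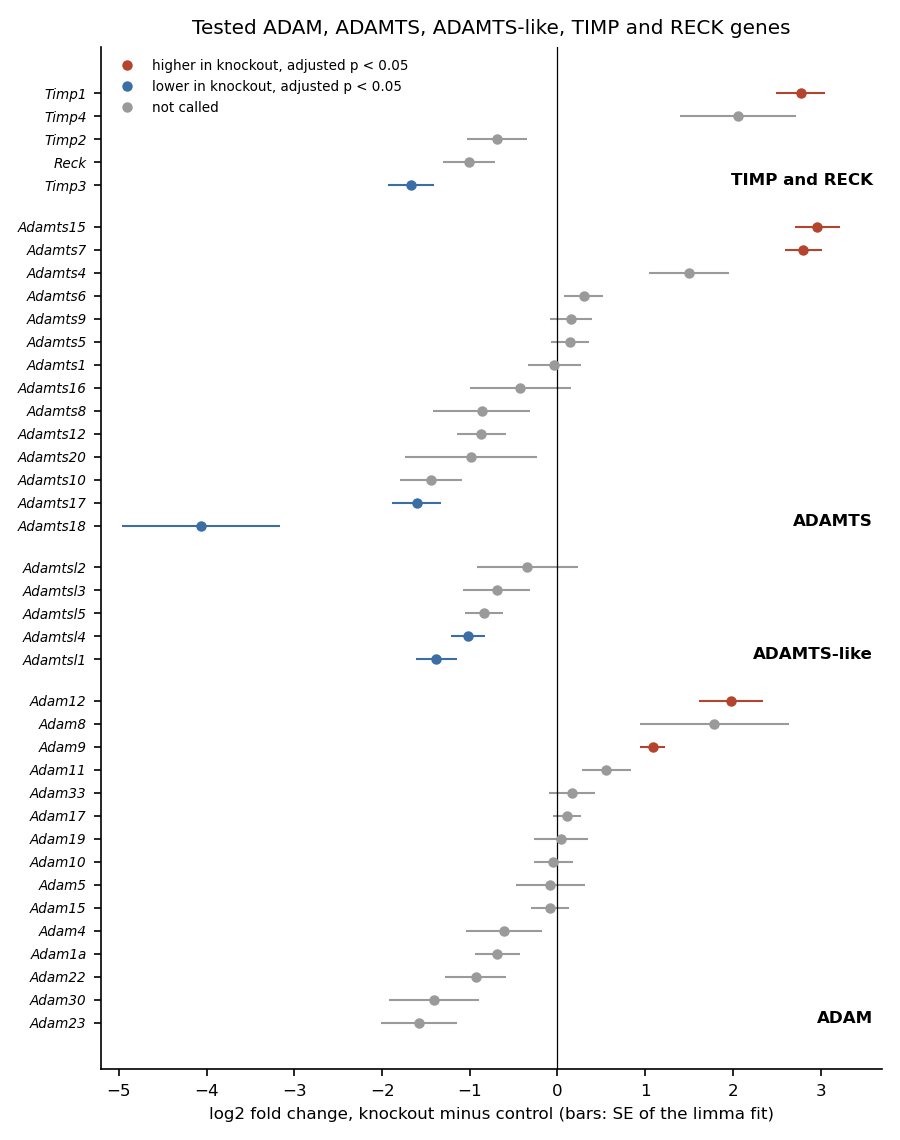
Log2 fold change of the 39 tested members (x axis, knockout minus control, on log2 of the value plus a pseudocount), with bars for the SE of the limma fit and members ordered within their family down the page. The 5 called higher run to 2.96 for Adamts15 and the 5 called lower to -4.06 for Adamts18, and all 5 ADAMTS-like genes lie below 0.

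The inhibitors did not move as a block. Timp1 encodes the inducible, secreted TIMP-1, an inhibitor of most soluble matrix metalloproteinases. It was at 679, 407 and 578 in the knockouts and at 75.0, 94.9 and 51.3 in the controls. Every knockout library was therefore several-fold above every control (means of 555 ± 137 against 73.7 ± 21.8, SD, n = 3 each, with a log2 fold change of 2.77 ± 0.28 SE and an adjusted p of 0.00274). Timp1 (ENSMUSG00000001131) lies on chromosome X from 20736405 to 20740975 in the table's own coordinates, for which no source used here names a build. The GRCm38.p6 window before its start, given above, lies past this end. The table's positions are therefore not those of GRCm38.p6 and cannot be compared with the positions of the windows.

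Timp3 encodes a matrix-bound inhibitor whose targets include ADAM17, ADAMTS4 and ADAMTS5. Its value was 4933, 3194 and 4661 in the knockouts and 12029.9, 11243 and 17654.5 in the controls. The highest knockout lay below the lowest control (log2 fold change -1.67 ± 0.26 SE, adjusted p = 0.0120), and the call was lost without knockout S6 (adjusted p = 0.0582) or control S2 (0.0552). Timp3 (ENSMUSG00000020044) spans 86136236 to 86185371 of chromosome 10 in the table.

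Timp2, which encodes the inhibitor that also helps MMP14 activate pro-MMP2, had the highest level per length of all members in both groups. Its value was 39367, 38242 and 38736.5 in the knockouts and 58573, 87209 and 47731 in the controls. The groups did not overlap, and the difference did not pass the test (log2 fold change -0.69 ± 0.34 SE, adjusted p = 0.280). Reck, the membrane-anchored inhibitor, was at 3353, 2510.2 and 2240.35 in the knockouts and at 4903, 8086 and 3857 in the controls. Here too the groups were apart without passing the test (-1.004 ± 0.30, adjusted p = 0.0934). Among the fits with a library left out, only that without control S4 called Reck (adjusted p = 0.0434).

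Timp4, a TIMP with restricted expression in mouse tissues that include fat, had the lowest level per length of the inhibitors. It was at 17.7, 43.8 and 177 in the knockouts, against 3.81, 6.25 and 9.25 in the controls (log2 fold change 2.06 ± 0.67 SE, adjusted p = 0.118). At such low values the fold depends on the pseudocount, and was 2.77 with a smaller and 1.19 with a larger one. Knockout S7 stood well above the others. The fat cell marker Adipoq ran 6.86, 111 and 519 in the same knockouts and was at most 2.52 in the controls. S7 was also the highest knockout for the keratinocyte, endothelial, macrophage and sebocyte marker sums, so this is not particular to fat cell markers. The 3 fat cell markers summed to 174 to 7338 in the knockouts and 6.35 to 62.5 in the controls, with 1 of 2 tested called higher, and their part in the Timp4 values was not tested.

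Expressed as a share of the summed TIMP value per kilobase of exon, Timp1 took 6.66%, 4.30% and 5.82% in the knockouts and 0.509%, 0.448% and 0.399% in the controls. Timp3 took 5.28%, 3.67% and 5.11% in the knockouts and 8.90%, 5.78% and 14.97% in the controls. Timp2 held 88.0% to 92.0% in the knockouts and 84.6% to 93.8% in the controls, so Timp2 made up most of the pool in both groups. Timp1, Timp3 and Timp4 each lie inside a synapsin gene on the opposite strand (Syn1, Syn3 and Syn2). No source used here says whether reads were counted by strand. Syn3 was at 31.8 to 55.9 in the knockouts and 87.0 to 181 in the controls, small beside the values of Timp3. Syn1 was at 44.1, 10.03 and 7.96 in the knockouts and at 48.3, 41.2 and 42.1 in the controls, small beside Timp1 in the knockouts but of the order of Timp1 in the controls, whose values are uncertain by that much. Syn2, at 12.8 to 64.4 in the knockouts and 10.1 to 47.5 in the controls, was of the order of Timp4, whose values are uncertain in the same way.

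**Figure D2:**
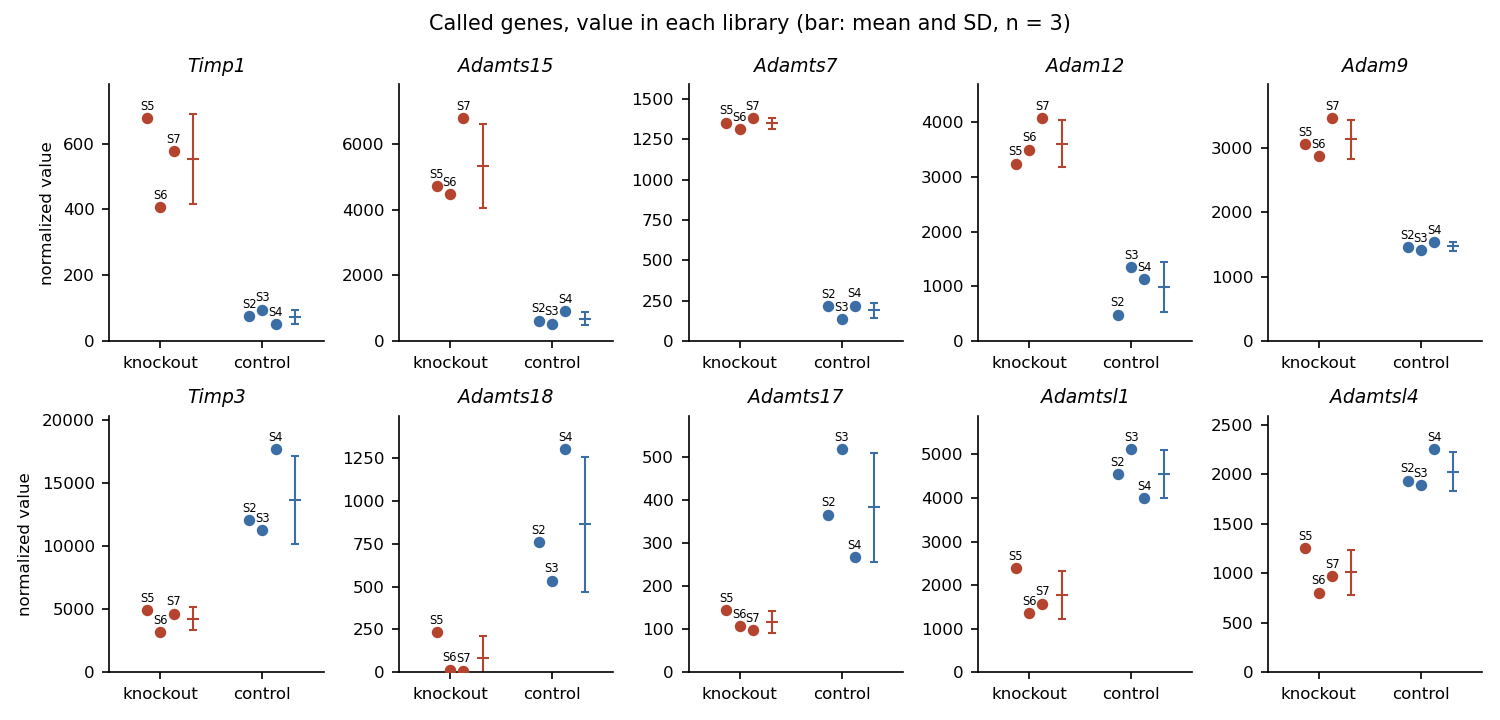
Normalized value (y axis, linear, from 0) of the 10 called members in each knockout library (left, red) and control library (right, blue), with the mean and SD of 3 libraries beside the points, cut at 0 where the SD exceeds the mean. No called member has overlapping groups, and Adamts18 in knockout S5 (232) stands apart from S6 and S7 (15.5 and 10.3).

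Among the 7 ADAMTS genes known for cleaving large proteoglycans, 1 rose, Adamts15. Its product cuts aggrecan and versican. Adamts15 (ENSMUSG00000033453, chromosome 9, 30810451 to 30833749 in the table) was at 4719.6, 4485 and 6802 in the knockouts, against 616, 522 and 909 in the controls. This was the largest rise of any member and far beyond the spread of either group (means of 5336 ± 1275 against 683 ± 202, SD, n = 3 each, with a log2 fold change of 2.96 ± 0.25 SE and an adjusted p of 0.00159). Its head-to-head neighbour Adamts8, 20.1 kb away in the table with no other table gene between them and another aggrecan-cleaving enzyme, was at 408, 110.1 and 108 in the knockouts and at 278, 547 and 210.1 in the controls. The Adamts8 groups overlapped (log2 fold change -0.86 ± 0.55 SE, adjusted p = 0.396), and the difference between the neighbours was not tested.

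Adamts4, the inducible aggrecanase-1 gene, was at 7012, 10089 and 3237 in the knockouts and at 3064, 2391 and 1365 in the controls. The lowest knockout was just above the highest control, and the gene did not pass the test (1.502 ± 0.45 SE, adjusted p = 0.0988). It was called when libraries were rescaled to a common total (adjusted p = 0.0314) or without knockout S7 (0.0486).

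The aggrecanase-2 gene Adamts5 and the versican-cleaving Adamts1 were the most abundant ADAMTS genes of the controls per length, and they lie side by side on chromosome 16, 53.1 kb apart. Adamts5 was at 12845, 8487 and 9794 in the knockouts and at 8709.8, 8878 and 10314 in the controls. Adamts1 was at 11945, 13246 and 7861 in the knockouts and at 12001, 13989 and 7980.3 in the controls. Both had overlapping groups (log2 fold changes 0.14 ± 0.22 and -0.04 ± 0.30 SE, adjusted p = 0.748 and 0.959). Adamts9 and Adamts20 had overlapping groups as well, with log2 fold changes of 0.15 and -0.99.

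As shares of the summed ADAMTS value per kilobase, Adamts15 took 7.00%, 6.55% and 14.97% in the knockouts and 1.22%, 0.971% and 2.03% in the controls. Adamts4 took 22.4%, 31.8% and 15.4% in the knockouts and 13.03%, 9.58% and 6.58% in the controls. Adamts1 took 33.8% to 37.8% in the knockouts and 34.9% to 50.9% in the controls. The sum itself ran from 4385 to 6606 in the knockouts and from 4315 to 5187 in the controls, with overlap.

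Of the 2 ADAMTS genes known for cleaving COMP 1 rose, Adamts7. Adamts7 (ENSMUSG00000032363, chromosome 9, 90045122 to 90090125 in the table) was at 1353, 1314 and 1382 in the knockouts and at 215, 135 and 219.5 in the controls. The 3 knockout values were nearly alike and all above the controls (means of 1349.8 ± 33.9 against 189.7 ± 47.5, SD, n = 3 each, with a log2 fold change of 2.803 ± 0.21 SE and an adjusted p of 0.000858). Its relative Adamts12 was at 4898, 2810.05 and 2402 in the knockouts and at 5432, 5313 and 6970.4 in the controls. The groups did not overlap, and the difference did not pass the test (-0.87 ± 0.28, adjusted p = 0.121). Among the fits with a library left out, only that without knockout S5 called Adamts12 (adjusted p = 0.0329). Adamts7 partly overlaps Tbc1d2b on the opposite strand, a gene at 6127, 6323 and 6913 in the knockouts and 2658, 3191 and 2442 in the controls, so the separate values of the 2 genes are uncertain without strand.

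Of the 4 fibrillin-associated ADAMTS genes 3 were tested and 1 fell. Adamts17 (ENSMUSG00000058145, chromosome 7, 66489483 to 66802920 in the table), whose human counterpart is mutated in a Weill-Marchesani-like syndrome, was at 145, 108 and 97.9 in the knockouts and at 366, 517 and 267 in the controls. All knockouts were below all controls (log2 fold change -1.61 ± 0.28 SE, adjusted p = 0.0185). The call was lost without knockout S6 or S7 or control S2 or S3 (adjusted p = 0.0850, 0.0640, 0.0833 and 0.0519). Adamts10, which encodes a fibrillin-1-binding enzyme, was at 1528, 1195 and 598 in the knockouts and at 2266, 2692 and 3679 in the controls (-1.44 ± 0.35, adjusted p = 0.0549). It was called lower without knockout S5 (adjusted p = 0.0417). Adamts6, its closest relative, had overlapping groups and a log2 fold change of 0.30.

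Adamts18 had the largest fold change of any member and the least even one. This gene, whose product has few established substrates (ENSMUSG00000053399, chromosome 8, 114423758 to 114575371 in the table), was at 232, 15.5 and 10.3 in the knockouts and at 757, 533 and 1298 in the controls. The 3 knockouts were below the controls, with S5 far above S6 and S7 (log2 fold change -4.06 ± 0.90 SE, adjusted p = 0.0408). The call was lost without any 1 of S6, S7, S2, S3 and S4 (adjusted p = 0.149, 0.115, 0.139, 0.0823 and 0.0712), and it was firmest without S5 (-5.21, adjusted p = 0.00231). Of the other 2 genes in this role, Adamts16 had overlapping groups and the von Willebrand factor protease gene Adamts13 was near 0 in all libraries.

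Of the 5 ADAMTS-like genes 2 fell. All 5 had negative log2 fold changes, also with libraries rescaled to a common total, except that Adamtsl2 was at 0.06 without knockout S7. Adamtsl1 (ENSMUSG00000066113, chromosome 4, 85432409 to 86346623 in the table), also called punctin, was at 2396, 1364 and 1579 in the knockouts and at 4544, 5109.7 and 3993 in the controls. Every knockout was well below the lowest control (log2 fold change -1.38 ± 0.23 SE, adjusted p = 0.0164). Adamtsl4 (ENSMUSG00000015850, chromosome 3, 95583511 to 95595229 in the table), a microfibril-binding protein gene, was at 1254, 806 and 969 in the knockouts and at 1934, 1889.8 and 2249 in the controls (-1.02 ± 0.19, adjusted p = 0.0252). Both calls were lost without knockout S6 or S7 or control S2 or S3 (adjusted p = 0.0521 to 0.0795 for Adamtsl1 and 0.0582 to 0.0962 for Adamtsl4). Rescaling to a common total also ended the Adamtsl4 call (-0.70, adjusted p = 0.135).

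Adamtsl5 was at 1242, 1066 and 920.5 in the knockouts and at 2029, 2379 and 1454 in the controls, apart but not called (-0.84 ± 0.22 SE, adjusted p = 0.0660). Among the fits with a library left out, only that without control S4 called Adamtsl5 (adjusted p = 0.0232). Adamtsl3 was at 503, 243 and 190.1 in the knockouts and at 581, 323 and 543 in the controls, with overlap (-0.69 ± 0.38, adjusted p = 0.325). Adamtsl2, a gene of geleophysic dysplasia in humans, was at 758, 159 and 144 in the knockouts and at 389, 299 and 321 in the controls. Knockout S5 lay above all controls and S6 and S7 below them (-0.35 ± 0.58, adjusted p = 0.767), and without S5 the gene was called lower (-1.10, adjusted p = 0.0444). Knockout S5 was likewise the highest knockout for Adamts18, Adamts17, Adamts10, Adamts12, Reck and all 5 ADAMTS-like genes. This was not particular to genes that lay lower in the knockouts. The same held for Timp1, which rose, and for Timp2, Timp3, Adamts5, Adamts6, Adamts8, Adam17, Adam19 and Adam23.

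Of the 8 ADAMs that keep a catalytic site and are expressed outside the germ line, 2 rose. Adam9 (ENSMUSG00000031555, chromosome 8, 25439627 to 25506944 in the table), a widely expressed sheddase, was at 3057, 2870.2 and 3465 in the knockouts and at 1458, 1406 and 1539 in the controls. Both groups were tight and apart (means of 3131 ± 304 against 1468 ± 66.9, SD, n = 3 each, with a log2 fold change of 1.08 ± 0.14 SE and an adjusted p of 0.00731). Adam12 (ENSMUSG00000054555, chromosome 7, 133484928 to 133833876 in the table), a gene of mesenchymal progenitors and tissue repair, was at 3239.9, 3497 and 4077 in the knockouts and at 481, 1350.3 and 1129 in the controls. Again no control reached a knockout (log2 fold change 1.98 ± 0.36 SE, adjusted p = 0.0222), and the call was lost without knockout S6 (adjusted p = 0.0902) or S7 (0.0789).

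The principal sheddases of the epidermis did not pass the test. Adam10, which cleaves Notch receptors and cadherins, was at 1651, 1177 and 1901 in the knockouts and at 1322, 1866 and 1660.2 in the controls (log2 fold change -0.05 ± 0.22 SE, adjusted p = 0.921). Adam17, which releases tumour necrosis factor and ligands of the epidermal growth factor receptor, was at 1734, 1275 and 1351 in the knockouts and at 1291, 1299 and 1418 in the controls (0.11 ± 0.16, adjusted p = 0.739). Adam19, another shedding enzyme, was at 1947, 1237 and 1523 in the knockouts and at 1340.1, 1075 and 2352 in the controls (0.04 ± 0.31, adjusted p = 0.958). The groups overlapped for all 3, as they did for Adam15 and Adam33. The signs of Adam10 and Adam15 turned positive when libraries were rescaled to a common total.

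Adam8, a protease gene of myeloid cells, was at 49.0, 147 and 655 in the knockouts and at 28.0, 28.7 and 95.0 in the controls. Control S4 lay above knockout S5, and the difference did not pass the test (1.79 ± 0.85 SE, adjusted p = 0.258). Adam8 partly overlaps Gm16201 on the opposite strand, at 44.1 to 47.7 in the knockouts and 38.2 to 63.7 in the controls, so the low Adam8 values are uncertain without strand. The leukocyte marker Ptprc was at 133, 679 and 1158 in the knockouts and at 36.9, 36.2 and 579 in the controls, so S7 was highest and S4 the highest control for both genes. This order was not particular to leukocyte markers. The endothelial markers summed to 1335, 1459 and 3754 in the knockouts and to 1552, 1232 and 2163 in the controls. The keratinocyte and sebocyte sums were also highest in S7 among knockouts and in S4 among controls. For the pericyte and smooth muscle sum S7 was the highest knockout (5014) and S2 the highest control (5472). The 5 macrophage markers summed to 1195 to 10546 in the knockouts and 1186 to 1982 in the controls, and the 3 neutrophil markers in the table to 50.0 to 503 in the knockouts and 0 to 19.3 in the controls, with S100a9 at 0 in all controls. None of the 5 macrophage and 1 neutrophil markers tested with limma passed at an adjusted p under 0.05 (3 did at an unadjusted p under 0.05), and their part in the Adam8 values was not tested.

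**Figure D3:**
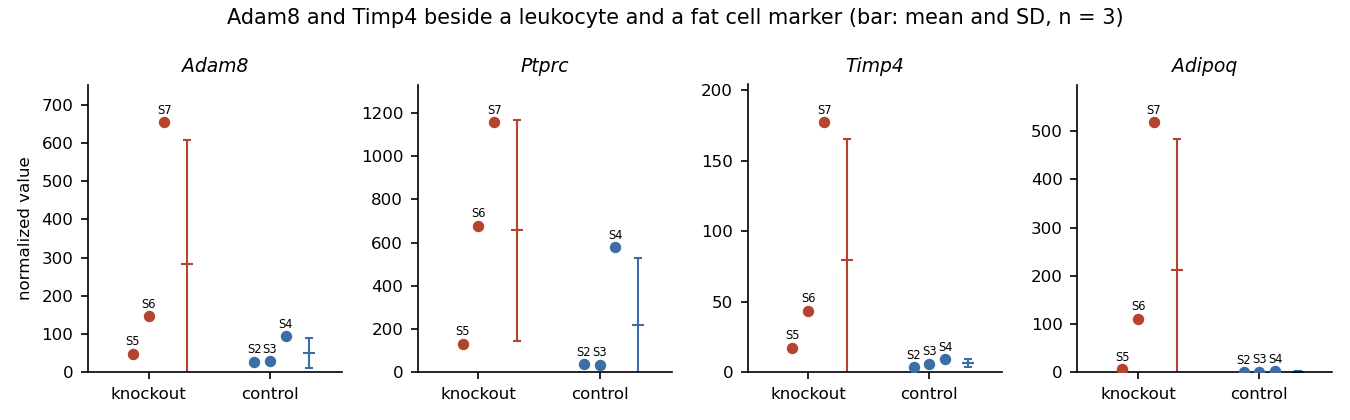
Normalized values (y axes, linear, from 0) of Adam8, the leukocyte marker Ptprc, Timp4 and the fat cell marker Adipoq in each knockout library (left, red) and control library (right, blue), with the mean and SD of 3 libraries, cut at 0 where the SD exceeds the mean. Knockout S7 is the highest library for all 4 genes, and among the controls S4 is the highest. The keratinocyte, endothelial and sebocyte marker sums were also highest in S7 among knockouts and in S4 among controls.

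Outside the germ line group, the 3 ADAMs without a catalytic site, receptors for LGI proteins at synapses and along nerves, were tested and not called. Adam23 was at 827, 241 and 313 in the knockouts and at 1042, 1078 and 1558 in the controls, apart but short of the threshold (log2 fold change -1.58 ± 0.43 SE, adjusted p = 0.0757), and it was called lower without knockout S5 (-2.10, adjusted p = 0.00863). Adam22 and Adam11 had overlapping groups, with log2 fold changes of -0.93 and 0.56. Of the 7 ADAM genes known mainly from the male germ line, 4 were tested, all at low values. Adam30 was at 37.3, 38.3 and 7.96 in the knockouts and at 144, 55.0 and 62.2 in the controls (-1.40 ± 0.51, adjusted p = 0.157). Adam1a was at 43.3, 61.3 and 42.0 in the knockouts and at 94.1, 87.5 and 70.2 in the controls (-0.69 ± 0.26, adjusted p = 0.164). It has a near relative in Adam1b and overlaps Gm42878 on the same strand, so its value is uncertain. The 6 members that did not pass the filter were Adam1b, Adam3, Adam21, Adamdec1, Adamts13 and Adamts19, whose values ran from 0 to 27.5 over all libraries.

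Levels can be compared between genes only per length, here as the normalized value per kilobase of exon in GENCODE M21. In the knockouts the order was Timp2 (9954 ± 145), Adamts1 (2078 ± 530), Adamts4 (1409.5 ± 713), Adamts5 (961 ± 207) and Adam9 (761 ± 73.9, SD, n = 3 each). Timp1 (625 ± 154), Reck (565 ± 121), Timp3 (523 ± 115) and Adamts15 (515 ± 123) followed, all within their spread of each other. In the controls the order was Timp2 (16557 ± 5235), Adamts1 (2136 ± 577), Timp3 (1675 ± 429), Reck (1175 ± 461) and Adamts5 (862 ± 81.7). Timp1 ranked 6 of 45 in the knockouts and 20 in the controls. Adamts15 ranked 9 in the knockouts and 24 in the controls, and Adamts7 ranked 18 in the knockouts and 30 in the controls. Adamts18 ranked 33 in the knockouts and 19 in the controls.

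**Figure D4:**
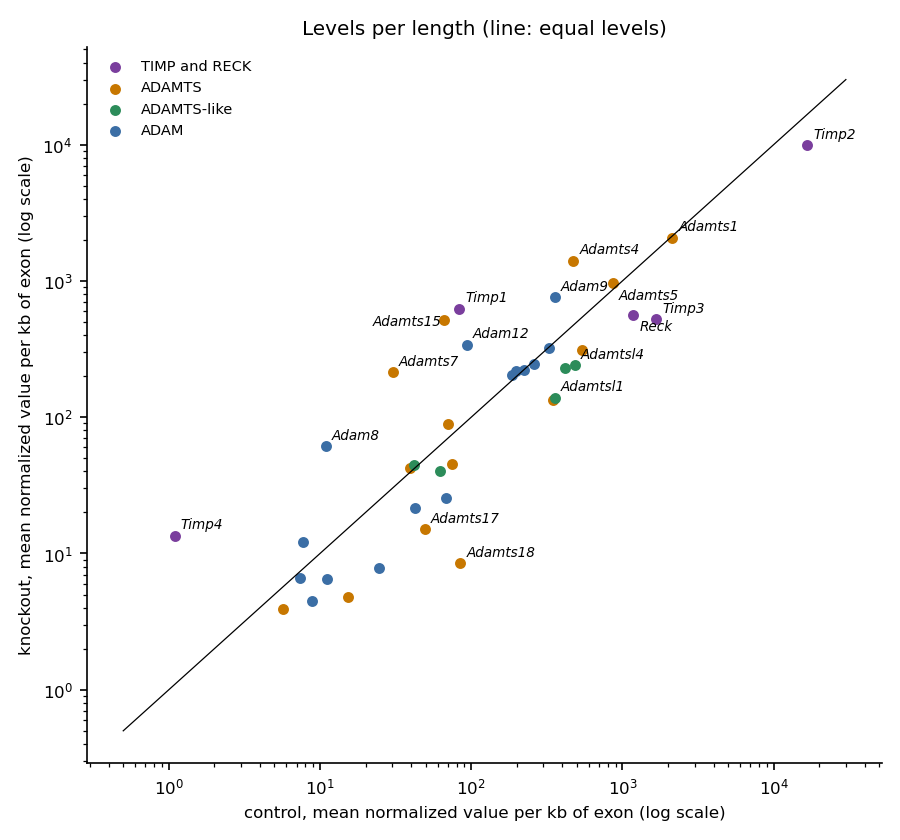
Mean normalized value per kilobase of exon in the knockouts (y axis) and in the controls (x axis) for the 39 tested members, both axes logarithmic, with a line at equal levels. Timp2 is highest in both groups, Timp1, Adamts15, Adamts7 and Adam12 lie above the line, and Timp3, Reck and Adamts18 below it.

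Summed per kilobase, the ADAM group came to 2485, 2201 and 2711 in the knockouts and to 1589, 1871 and 2042 in the controls. Adam9 alone took 29.9% to 31.7% of that sum in the knockouts and 18.3% to 22.3% in the controls, and Adam12 took 12.3% to 15.03% in the knockouts and 2.86% to 6.83% in the controls. The inhibitors came to 12179, 11199 and 11665 in the knockouts and to 17622, 25565 and 15286 in the controls. The ADAMTS-like genes came to 909, 576 and 592 in the knockouts and to 1370.1, 1433 and 1267 in the controls. These sums depend on the authors' scaling and were not tested.

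Genes that work with these proteases were taken as 6 lists by role. Of the 31 such genes that the table holds, 28 were tested, of which 4 rose and 2 fell, where 4.12% and 2.59% of all tested genes did so. Their median log2 fold change was 0.30, against 0.01 over all tested genes. Among 7 tested regulators of the ADAM10 and ADAM17 sheddases 1 rose, Tspan15, a tetraspanin that directs ADAM10 to cadherins (148 ± 24.8 in knockouts and 46.8 ± 15.6 in controls, log2 fold change 1.52 ± 0.29 SE, adjusted p = 0.0255). Its call was lost without any 1 of S5, S6, S7, S2 and S3 (adjusted p = 0.0525 to 0.0968). Among 6 enzymes that mature or glycosylate the proteases 2 rose, the propeptide convertase genes Furin and Pcsk5. Furin was at 5982, 7046 and 7698 in the knockouts and at 2754, 3716 and 3091 in the controls (1.12 ± 0.19, adjusted p = 0.0160), a call lost without S6, S7 or S2 (0.0769, 0.0641 and 0.0850). Pcsk5 was at 5811, 3166 and 5289 in the knockouts and at 1425, 1632 and 1902 in the controls (1.48 ± 0.25, adjusted p = 0.0175), a call lost without S7, S2 or S3 (0.0668, 0.0872 and 0.0522). The convertase gene Pcsk6 lay the other way, at 3675, 1218 and 1558 in the knockouts and at 4594, 6103 and 5711 in the controls, with groups apart but not called (-1.502 ± 0.39, adjusted p = 0.0641).

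Of 4 tested ADAMTS substrates 1 rose, Comp, the substrate of ADAMTS7, from a level near the floor. Comp was at 22.6, 32.8 and 39.0 in the knockouts and at 0, 3.75 and 1.68 in the controls (log2 fold change 1.88 ± 0.35 SE, adjusted p = 0.0224, and 0.0903 without S2), and the fold was 3.30 with a smaller and 0.82 with a larger pseudocount. The versican gene Vcan was at 18439, 4585 and 8690.06 in the knockouts and at 10134, 8473 and 9665 in the controls, with overlap. Of the 4 LGI ligand genes 2 fell. Lgi1 was at 6.93, 0 and 2.99 in the knockouts and at 411, 574 and 214 in the controls (-4.97 ± 0.41, adjusted p = 0.00135). The knockouts were near the floor of 3 reads, and the fold was -6.45 with a smaller and -3.36 with a larger pseudocount. Lgi4, a nerve-sheath signal, was at 528, 169.8 and 233 in the knockouts and at 1220.03, 2074 and 979 in the controls (-2.25 ± 0.44, adjusted p = 0.0267), a call lost without S6, S7, S2 or S3 (0.0745 to 0.0983). Lgi2 lay the other way, at 2787, 1237 and 1644.5 in the knockouts and at 996, 397 and 886 in the controls, with groups apart but not called (1.33 ± 0.41, adjusted p = 0.105). In the list of ADAMTS-like partners and in that of RECK partners no gene passed the limma test, with 1 of 3 and 1 of 4 at an unadjusted p under 0.05. The gene with the highest normalized value of each list, not scaled by length, was the fibrillin gene Fbn1 (log2 fold change -0.64) and the endocytic receptor gene Lrp1 (0.23).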

How the data were processed

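RNA was extracted from sorted skin cells with a PureLink column kit and sequenced from NEBNext Ultra II libraries, per the labels' protocols. The authors deposited 1 table of counts that they had normalized, per the file headers, and its values are handled as a signal in which reads were divided by a size factor per library. Of values up to 1000 reads, 78.7% to 81.2% per library were whole reads within 0.05, too few for count models. Floors cover counting error only. Partek 9.0.20.0202 and TopHat2 2.1.0 appear, without a role, in the submitters' processing notes. No source used here gives the build, the annotation release or the strand setting. Knockout minus control was tested with limma 3.58.1 in R 4.3.3 (2-sided, trended empirical Bayes) on log2(value + 9.15), a pseudocount of 0.5 per 1000000 of the mean library total, which understates changes of low genes. Genes with 1 per 1000000 in at least 3 of 6 libraries entered (15935), with Benjamini-Hochberg adjustment over all of them and a threshold of 0.05. The fit was tested on simulated data with 1 mean profile, apart from planted changes, and 1 setting for the spread. The libraries here differ more than that, as their marker sums do, so the simulation does not show how the fit performs on them.

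The labels do not say whether libraries came from separate mice, and every p-value therefore reflects only how these samples vary, in part perhaps technically. Members and lists were chosen with earlier results of these data known. Called members, tested members with separated groups, the 2 highest others of each family and up to 3 called genes per list (or the highest) were named by rule. Adam8, Adam11, Adam15, Adam17, Adam22, Adam33, Adamts6, Adamts8, Adamts9, Adamts16, Adamts20, Vcan, Lgi2, Pcsk6 and the marker and overlapping genes were named after their values were seen. Exon lengths came from GENCODE M21 by gene ID (45 of 45) and promoters from RefSeq by symbol. Alternatives were other pseudocounts, no filter, a common total, other variance models, leaving out each library and, added after seeing the data, a term for the number in the column names.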

Additional observations from a re-analysis of the deposited data

How the results depend on the processing

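Timp1, Adamts7, Adamts15 and Adam9 kept their calls in the 12 other settings run without a replicate term, 6 of which left out a library. The count of members called higher was 4 to 5 when each library was left out in turn, and that of members called lower was 0 to 9. The 0 occurred without knockout S6 or control S2, where limma gave 12 and 11 lower members at an unadjusted p under 0.05, and the 9 without knockout S5. Over all genes, lower calls in these fits were 91 without S6, 74 without S2 and 349 without S5, where 413 were reported. The count of all called genes, 1070 as reported, ran from 270 without knockout S6 and 307 without control S2 to 1237 without control S4. It was 435 without knockout S7 and 545 without control S3. The lists of partner genes had 0 to 5 called higher and 0 to 3 called lower in these fits. Limma gave 7 higher at an unadjusted p under 0.05 in both fits with 0 called higher (without S7 and without S2), and 2 lower in both fits with 0 called lower (without S2 and without S3). Smaller and larger pseudocounts, no filter and robust variance each kept the same 10 members called. Without an intensity trend Adamts18 was lost (adjusted p = 0.0610). Rescaling to a common total moved the median log2 fold change of all genes by 0.31, added Adamts4, ended the call of Adamtsl4, and gave 7 higher list genes where 4 were reported. Calls over all genes moved the same way, to 1057 higher and 283 lower, where 657 and 413 were reported. With the common total 19 of the 39 tested members had a positive log2 fold change, against 15 as deposited, and 4 changed sign, none of them called. Of all 15935 tested genes, 11737 had a positive log2 fold change with the common total and 8153 as deposited. Timp4 and Comp were not tested without a knockout library, nor Lgi1 without a control library, since the filter still asked for 3 libraries. For Zfp750 the difference of mean log2 values was -2.13, or -3.31 to -0.91 with a library left out. A replicate block on the labels' numbers was not run, because the columns do not carry those numbers. The column names hold another number, 2 of which occur in both groups, and a fit with it as a replicate block was added after seeing the data. Same-numbered libraries deviated together in 1 of 2 pairs (correlations of 0.25 for S6 with S2 and -0.22 for S7 with S3). This fit, with 1 residual degree of freedom, called 1527 genes, 7 members higher and 12 lower, and 5 list genes higher and 4 lower. Knockout S5 and control S4 carry numbers found in no other library, and the block term fits them exactly. The knockout effect in this fit therefore rests only on S6 against S2 and S7 against S3. All 10 called members stayed called in this fit, and Tspan15 was lost (adjusted p = 0.0711). Among the members it added were Reck, Adamts12 and Adamtsl5 (adjusted p = 0.0423, 0.0379 and 0.0339). Count models were not run because the values are not whole reads.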
